A study of Homo sapiens with 8 samples.

Results

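Most of the 10 genes described are among those a cell transcribes to hold its own ERK and other MAP kinase signals in check. These are the dual-specificity phosphatase genes DUSP1, DUSP4, DUSP5, DUSP6 and DUSP10, and the Sprouty and Spred genes SPRY2, SPRY4, SPRED1 and SPRED2. The last is PHLDA1, whose transcript responds to ERK signalling. The 10 genes were chosen by symbol, and each was found under its identifier among the 58735 genes of the GENCODE 29 annotation that were measured. The cells were U2OS, an established human osteosarcoma line, stably carrying either the control construct labelled shControl (control cells, genotype WT) or a shRNA against WSB2 (KD cells), and left without cytokine or given TNF-α for 5 h. Total RNA of 4 groups of 2 libraries was sequenced, 8 libraries in all. WSB2 is a substrate receptor of a ubiquitin ligase, and the study asked what its knockdown does to transcription driven by NF-κB. Knockdown lines were made with lentivirus and selected with puromycin. The control is called a control shRNA in one place and an empty shRNA vector in another, and which of the WSB2 shRNAs was sequenced is not given in the sources used here. The labels do not say whether the 2 libraries of a group came from separate cultures, so a p-value measures the spread between these libraries.

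Growth factors and cytokines signal through cascades of kinases that end in the MAP kinases ERK, JNK and p38. An active MAP kinase is switched off when a dual-specificity phosphatase removes the phosphates from its activation loop, while Sprouty and Spred proteins act upstream, between the receptor and Raf. Many of these inhibitors are made only after the pathway has fired, which makes their transcripts a common readout of recent ERK, JNK or p38 activity. TNF-α is best known for activating NF-κB and also activates JNK, p38 and ERK.

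The values were FPKM (fragments divided by exon length and by library size) and rested on 15601098 to 18677023 reads per library. WSB2 averaged 27.9 FPKM in control and 8.45 FPKM in KD cells without TNF-α, and 25.1 and 9.09 FPKM with it, and was called lower in KD cells in both, though with TNF-α not without the second stimulated KD library (adjusted p = 0.0519 from limma). The unstimulated KD libraries stood apart from the other 6. Mitochondrial reads made up 4.10% and 4.42% of them against 1.11% to 2.03% elsewhere, the average GC content of a read's gene was 50.6% and 50.1% against 53.2% to 53.8%, 26225 and 26397 genes had a read against 22072 to 22957, and the authors had divided by a library size 1.21 times the total in both against 0.925 to 1.03 times. Their part in the results that use the unstimulated KD cells was not tested, and those results cannot be had without these libraries. Of 10 mesenchymal and osteoblast markers, VIM, FN1, COL1A1 and SPARC were at 66.4 to 293 FPKM, RUNX2 and ALPL at 1.22 to 5.41 FPKM, and COL1A2, SP7, BGLAP and TWIST1 at most 0.448 FPKM, with TWIST1 at 0 in every library. The 8 markers of epithelial, blood, endothelial and liver cells summed to between 0.402 and 0.877 FPKM and none reached 1 FPKM in any library.

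The 10 genes spanned a wide range of levels. DUSP1 was the most abundant per length, at 36.5 to 95.04 FPKM, followed by SPRED2 at 9.67 to 15.8 FPKM and DUSP5 at 3.69 to 26.9 FPKM. SPRED1, PHLDA1, SPRY2 and DUSP10 lay between 1.14 and 8.62 FPKM. DUSP6, the cytoplasmic phosphatase of ERK, was at 0.126 to 0.462 FPKM, and DUSP4 and SPRY4 were close to absent, with 55 and 6 reads in the 8 libraries together. Genes entered the test when 2 or more libraries reached 10 reads at the median depth and all libraries summed to 15 or more, which kept 16528, and 9 of the 10 genes passed, SPRY4 being left out. DUSP4 passed through the unstimulated KD libraries, where it had 13 and 25 reads against 1 to 6 in the others. Group means on the log2(FPKM + 1) scale were compared with limma in a single fit of the 8 libraries, which pools their spread. That spread was unequal. The mean chi-square per degree of freedom between the reads of a group's 2 libraries was 30.1 in unstimulated control cells. It was 7.23 in unstimulated KD, 4.31 in stimulated control and 2.45 in stimulated KD cells. Comparisons of stimulated groups thus share the spread of unstimulated control cells. A gene was called when its p, adjusted by Benjamini and Hochberg over the genes tested, was under 0.05. Changes of low genes come out too small on this scale, most of all at about 1 FPKM or less, and still at a few FPKM. The rise of SPRY2 with TNF-α in control cells, 1.99-fold in mean FPKM, was 0.68 on this scale. In a fit of the reads (voom) it was 0.99. In RNA from whole cultures, fewer expressing cells and less RNA per cell cannot be told apart.

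**Figure D1:**
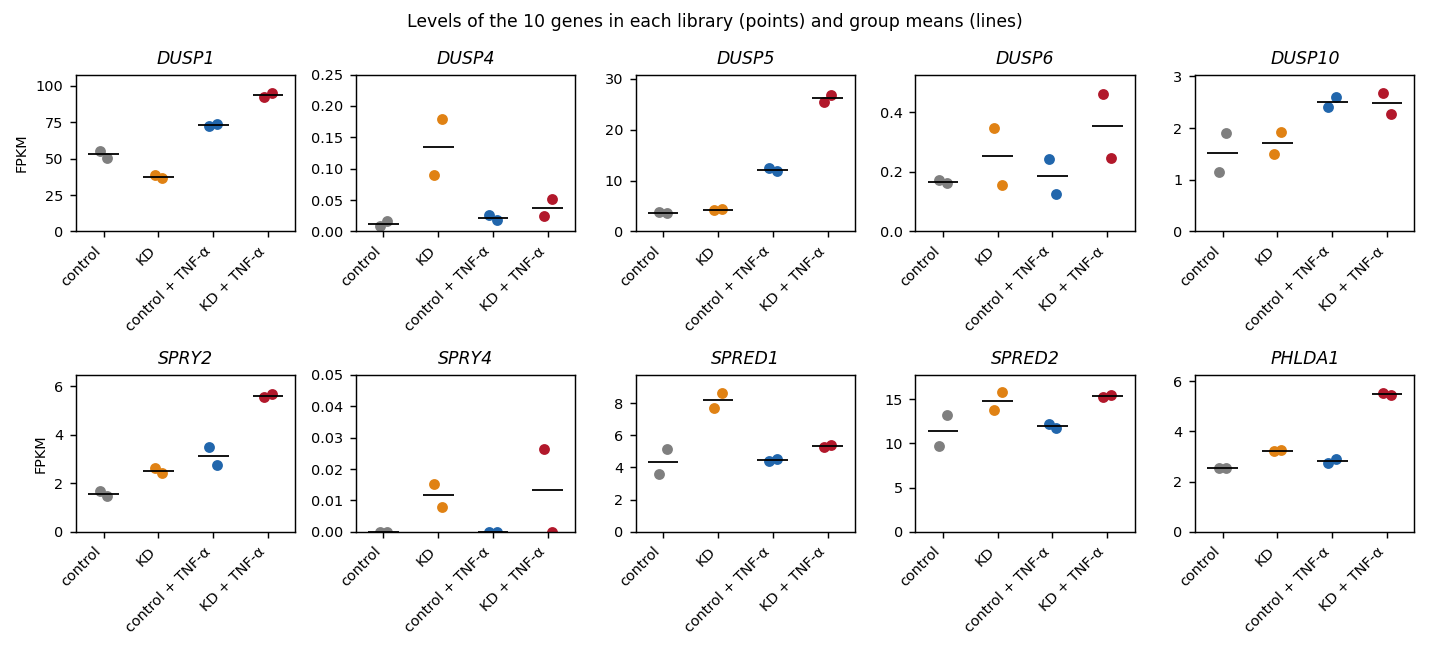
FPKM of the 10 genes (y axis, from 0, a scale of its own for each gene) in the 4 groups of 2 libraries (x axis), with a point for each library and a line at the group mean. DUSP1, DUSP5, SPRY2 and PHLDA1 had both stimulated KD libraries above all the others.

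DUSP5 encodes a nuclear phosphatase specific for ERK. The gene occupies positions 110497838 to 110511544 of chromosome 10 (plus strand, GRCh38, as are all gene positions here). It was at 3.78 and 3.69 FPKM in unstimulated control cells, at 4.15 and 4.497 FPKM in unstimulated KD cells, at 12.4 and 11.8 FPKM in stimulated control cells and at 25.6 and 26.9 FPKM in stimulated KD cells. No library of a group overlapped with that of another, and the stimulated KD libraries were the highest. With TNF-α, KD exceeded control 2.16-fold in mean FPKM, by 1.05 on the log2 scale (SE 0.0824, adjusted p = 0.00883 from limma). TNF-α itself raised DUSP5 by 1.47 in control cells (SE 0.0824, adjusted p = 7.1e-05 from limma) and by 2.36 in KD cells (SE 0.0824, adjusted p = 4.1e-06 from limma). The rise in KD cells was 2.54 with upper-quartile scaling and 1.89 after a correction for GC content and length. Without TNF-α the difference of 0.17 between KD and control did not pass (95% interval -0.02 to 0.36, adjusted p = 0.112 from limma). It passed at 0.40 with libraries scaled to total reads and at 0.62 after a correction for GC content and length, and was -0.03 with upper-quartile scaling. The call with TNF-α held under each alternative but the removal of a stimulated library, where the difference stayed between 1.02 and 1.09 and the adjusted p rose to 0.0998 and 0.137 without the first and second control library and to 0.167 and 0.195 without the first and second KD library.

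DUSP1, a nuclear phosphatase that acts on p38, JNK and ERK, occupies positions 172768090 to 172771195 of chromosome 5 (minus strand). Its start in GENCODE is also a start in RefSeq, whose bases just upstream are shown because, of the 4 windows that reached outside the transcribed gene (DUSP1, DUSP10, SPRED2 and SPRY2), that of DUSP1 was the 1 with a motif match. The capitals mark TGACGTCA, the palindromic CRE, at -125 to -118 from the start. SPRY2, printed beside it, also rose with TNF-α in both kinds of cells and had no match to CRE, TGANTCA (AP-1), GGAAGT (ETS) or the NF-κB consensus on either strand of the window. Both are the 250 bases before a RefSeq start on GRCh38.p14, minus strand, 5′ to 3′.
DUSP1, chr5:172771196-172771445: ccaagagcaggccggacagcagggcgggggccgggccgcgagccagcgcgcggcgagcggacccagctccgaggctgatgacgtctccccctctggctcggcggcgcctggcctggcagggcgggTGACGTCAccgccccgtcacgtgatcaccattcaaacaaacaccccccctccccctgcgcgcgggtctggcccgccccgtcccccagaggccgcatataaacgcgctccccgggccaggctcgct
SPRY2, chr13:80341127-80341376: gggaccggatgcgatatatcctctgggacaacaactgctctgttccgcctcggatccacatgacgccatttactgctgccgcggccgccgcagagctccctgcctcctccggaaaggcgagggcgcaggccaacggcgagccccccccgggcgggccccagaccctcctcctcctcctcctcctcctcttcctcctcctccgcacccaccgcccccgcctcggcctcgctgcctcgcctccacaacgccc
Of all 35116 RefSeq windows of this length, 1.65% held CRE, 6.57% AP-1, 19.5% ETS and 5.21% the NF-κB consensus. The table had windows for 8 of the 10 genes, 12 in all, and DUSP4 and DUSP5 had none. The other match was ETS, read on the opposite strand in the last 6 bases before a SPRY2 start that lies inside the gene. A match is a string of letters and was not tested for binding.

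DUSP1 was at 55.4 and 50.6 FPKM in unstimulated control cells, at 38.5 and 36.5 FPKM in unstimulated KD cells, at 72.3 and 74.0 FPKM in stimulated control cells and at 92.07 and 95.04 FPKM in stimulated KD cells. The groups did not overlap, and the KD libraries were the lowest without the cytokine and the highest with it. Without TNF-α, DUSP1 was lower in KD cells, at 0.708 times the control level (log2 difference -0.49, SE 0.0784, adjusted p = 0.00120 from limma). This difference was -0.21 with total reads and -0.73 with upper-quartile scaling, and -0.05 after the correction for GC content and length, where it was no longer called (adjusted p = 0.489 from limma). TNF-α raised DUSP1 by 0.46 in control cells (SE 0.0784, adjusted p = 0.0196 from limma) and by 1.30 in KD cells (SE 0.0784, adjusted p = 3.3e-05 from limma), a 2.49-fold rise in mean FPKM in the latter, which was 0.85 on the log2 scale after the GC and length correction. In control cells this call was lost with upper-quartile scaling, with the removal of any stimulated library, and in a fit of only the groups compared, with adjusted p from 0.0616 to 0.170. Between stimulated KD and control cells DUSP1 differed by 0.35 (95% interval 0.17 to 0.53), which did not pass after adjustment over all genes (adjusted p = 0.208 from limma).

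DUSP10, which prefers p38 and JNK, occupies positions 221701424 to 221742176 of chromosome 1 (minus strand). It was at 1.14 and 1.90 FPKM in unstimulated control cells, 1.51 and 1.92 FPKM in unstimulated KD cells, 2.42 and 2.60 FPKM in stimulated control cells and 2.68 and 2.28 FPKM in stimulated KD cells. The stimulated libraries were all above the unstimulated ones, and control and KD overlapped in both conditions. No comparison called it. The difference with TNF-α was 0.49 in control cells (adjusted p = 0.168 from limma), 0.71 and called without the second unstimulated control library, and 0.36 in KD cells (adjusted p = 0.0866 from limma), called in 6 of 18 alternatives. Between stimulated KD and control cells it was -0.01, with a 95% interval of -0.39 to 0.36.

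DUSP6, at positions 89347232 to 89353271 of chromosome 12 (minus strand), measured 0.173 and 0.162 FPKM in unstimulated control cells, 0.349 and 0.157 FPKM in unstimulated KD cells, 0.244 and 0.126 FPKM in stimulated control cells and 0.462 and 0.246 FPKM in stimulated KD cells. With 9 to 37 reads per library the replicates differed widely, and only the stimulated KD libraries stood clear of both control groups, over stimulated control by a margin of 0.246 against 0.244 FPKM. No difference was detectable at this depth. DUSP4, a nuclear inducible phosphatase on chromosome 8 from 29333064 to 29350668 (minus strand), was at 0.0904 and 0.178 FPKM in unstimulated KD cells and at 0.00919 to 0.0523 FPKM in the other 6 libraries. Because DUSP4 entered the test only through the libraries in which it was high, the difference there is given as levels, with no test. DUSP6 shared 1875 exon bases with an antisense gene that had 1 read, and the strand of the counting is not given in the sources used here.

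SPRY2, a Sprouty protein that blocks signalling from receptor tyrosine kinases to Ras, lies on chromosome 13 from 80335976 to 80340951 (minus strand). It was at 1.67 and 1.46 FPKM in unstimulated control cells, 2.61 and 2.44 FPKM in unstimulated KD cells, 3.48 and 2.75 FPKM in stimulated control cells and 5.54 and 5.66 FPKM in stimulated KD cells. The groups did not overlap and KD was above control in both conditions. TNF-α raised SPRY2 by 0.68 in control cells (SE 0.118, adjusted p = 0.0218 from limma) and by 0.91 in KD cells (SE 0.118, adjusted p = 3.9e-04 from limma). The rise in KD cells was 0.62 with total reads, as in control cells, and 1.07 with upper-quartile scaling. KD was above control by 0.46 without TNF-α (SE 0.118, adjusted p = 0.0112 from limma) and by 0.69 with it, where the interval ran from 0.41 to 0.96 and the adjusted p of 0.121 from limma missed the threshold. The call in unstimulated cells was lost with upper-quartile scaling, which gave 0.29 (adjusted p = 0.0666 from limma), and without the first unstimulated KD library (adjusted p = 0.0634 from limma), and held at 0.49 after the GC and length correction. The rise in control cells was not called in 8 alternatives, among them the removal of the first stimulated control library, of any KD library and of both unstimulated KD libraries, with adjusted p from 0.0533 to 0.145. SPRY4, its paralog, was at 0 in the 4 control libraries and had at most 3 reads in a KD library, which allows no comparison.

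SPRED1 and SPRED2 bring the Ras inhibitor neurofibromin to the membrane. SPRED1, on chromosome 15 from 38252326 to 38357249 (plus strand), was at 3.58 and 5.12 FPKM in unstimulated control cells, 7.71 and 8.62 FPKM in unstimulated KD cells, 4.42 and 4.498 FPKM in stimulated control cells and 5.27 and 5.38 FPKM in stimulated KD cells. Its highest libraries were the unstimulated KD ones, unlike those of DUSP1, DUSP5, SPRY2 and PHLDA1, and the control groups overlapped. It was higher in KD than control cells without TNF-α (log2 difference 0.79, SE 0.141, adjusted p = 0.00192 from limma) and lower with TNF-α than without in KD cells (log2 difference -0.53, SE 0.141, adjusted p = 0.0115 from limma). SPRED1 has a GC content of 40.7%, the lowest of the 10 genes, and the correction for GC content and length left 0.09 of the first difference (adjusted p = 0.478 from limma) and turned the second to 0.12 (adjusted p = 0.323 from limma). The second was -0.87 with total reads and -0.35 with upper-quartile scaling. Its call was also lost without the second unstimulated KD library (adjusted p = 0.0772 from limma) and without the first stimulated KD library (adjusted p = 0.0552 from limma). With TNF-α, KD and control differed by 0.21 (95% interval -0.11 to 0.54, adjusted p = 0.813 from limma).

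SPRED2, on chromosome 2 from 65310851 to 65432637 (minus strand), was at 9.67 and 13.2 FPKM in unstimulated control cells, 13.8 and 15.8 FPKM in unstimulated KD cells, 12.2 and 11.7 FPKM in stimulated control cells and 15.2 and 15.4 FPKM in stimulated KD cells. Both KD groups were above both control groups, with no overlap, and TNF-α groups overlapped with their unstimulated counterparts. KD exceeded control by 0.36 without TNF-α (SE 0.135, adjusted p = 0.0516 from limma) and by 0.33 with it (SE 0.135, adjusted p = 0.586 from limma), neither of which was called. The former was called in 7 of 18 alternatives, including the GC and length correction at 0.52, scaling to total reads at 0.62, and the removal of the second unstimulated control library at 0.56, while upper-quartile scaling gave 0.13.

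PHLDA1 encodes a small protein with a pleckstrin homology-like domain whose transcript responds to ERK signalling. It lies on chromosome 12 from 76025447 to 76033932 (minus strand). It was at 2.54 and 2.52 FPKM in unstimulated control cells, 3.21 and 3.26 FPKM in unstimulated KD cells, 2.74 and 2.90 FPKM in stimulated control cells and 5.53 and 5.43 FPKM in stimulated KD cells. The groups did not overlap, and stimulated KD cells were highest, 1.94-fold above stimulated control cells in mean FPKM. That difference was called at 0.76 on the log2 scale (SE 0.0930, adjusted p = 0.0489 from limma), just inside the threshold. It stayed between 0.73 and 0.96 in 19 alternatives but was not called in 13 of them, among them the removal of any stimulated library or unstimulated KD library, a fit of only the groups compared, and total-read and upper-quartile scaling, with adjusted p up to 0.457. TNF-α raised PHLDA1 by 0.61 in KD cells (SE 0.0930, adjusted p = 7.8e-04 from limma), by 0.31 with total reads and by 1.07 after the GC and length correction. In control cells the difference was 0.11 (95% interval -0.10 to 0.33, adjusted p = 0.594 from limma). Without TNF-α KD was above control by 0.26 (SE 0.0930, adjusted p = 0.0401 from limma), a call that was lost in 11 alternatives, every removal of a library among them, and turned to -0.24 after the GC and length correction (adjusted p = 0.0612 from limma). The gene shared 553 and 779 exon bases with antisense genes that had no read.

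Taking the comparisons in turn, in stimulated cells 2 of the 9 tested genes, DUSP5 and PHLDA1, were higher in KD than control cells and 0 were lower. Over all genes the same test called 0.0605% higher and 0.0545% lower, 19 of 16528, and 1348 had an unadjusted p under 0.05. Both KD libraries were above both control libraries for 7 of the 9 genes and below for 0, against 23.9% above and 22.3% below among all genes, with DUSP4 and DUSP10 overlapping. The median difference over the 9 genes was 0.33, and over all genes it was -0.00015. The study displayed DUSP5 as raised in these same libraries, and DUSP1, DUSP6, SPRY2, SPRED2 and PHLDA1 were among the leading genes of its enrichment lists, so that these counts are not independent evidence of a direction.

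**Figure D2:**
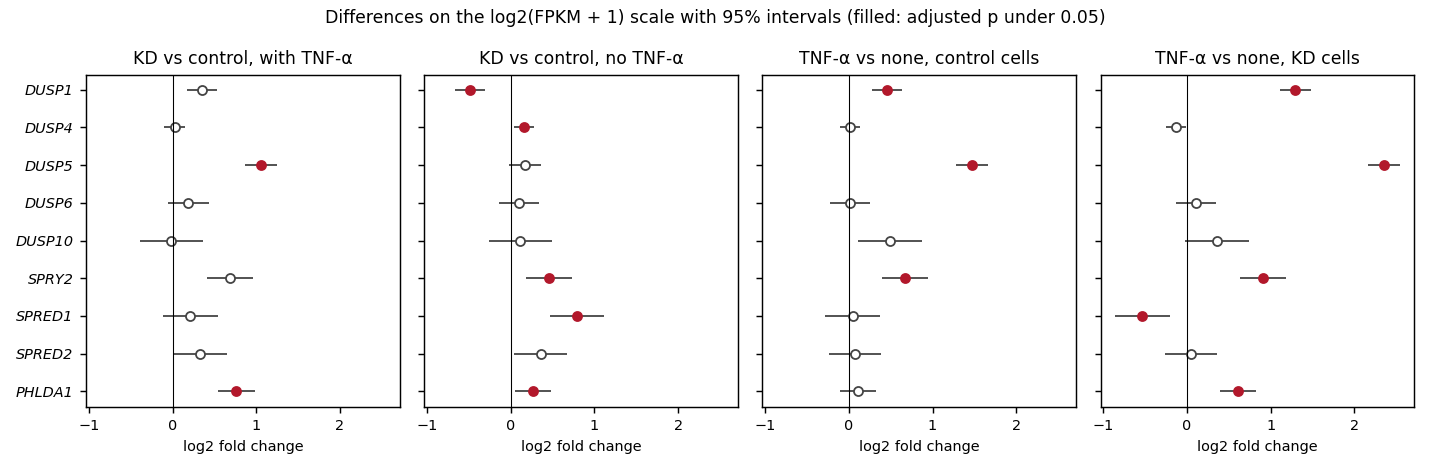
Log2 fold change on the log2(FPKM + 1) scale (x axis) of the 9 tested genes in 4 comparisons, with 95% intervals as bars and filled points where the adjusted p was under 0.05. DUSP5 moved most under TNF-α in both kinds of cells, by 1.47 and 2.36, and DUSP1 was lower in KD cells without TNF-α and higher with it, the latter without passing the test. The filled point of DUSP4 without TNF-α is not counted as a call, since the gene passed the filter through those KD libraries.

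Without TNF-α, and with DUSP4 left out of the count because it passed the filter through the unstimulated KD libraries, 3 of 8 genes were higher in KD cells (SPRED1, SPRY2 and PHLDA1) and 1 was lower (DUSP1), where 29.8% of all genes were called higher and 30.2% lower. Calls in either direction were made for 4 of the 8 and for 60.1% of all genes. The split of all calls moved with the scaling, from 49.7% higher with the authors' scaling to 65.3% with total reads, which shifted the median of all genes to 0.13, and 37.8% with upper-quartile scaling, which shifted it to -0.12. With total reads 5 of the 8 were higher and 1 was lower, against 6515 and 3456 of the 16528 genes. Upper-quartile scaling gave 1 and 1, against 3805 and 6273 of all genes. The GC and length correction gave 3 and 0, against 3847 and 4607. The plot of the 4 scalings shows that this spread was a matter of the unstimulated comparison, since in stimulated cells the 4 values of a gene spanned at most 0.035 on the log2 scale.

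**Figure D3:**
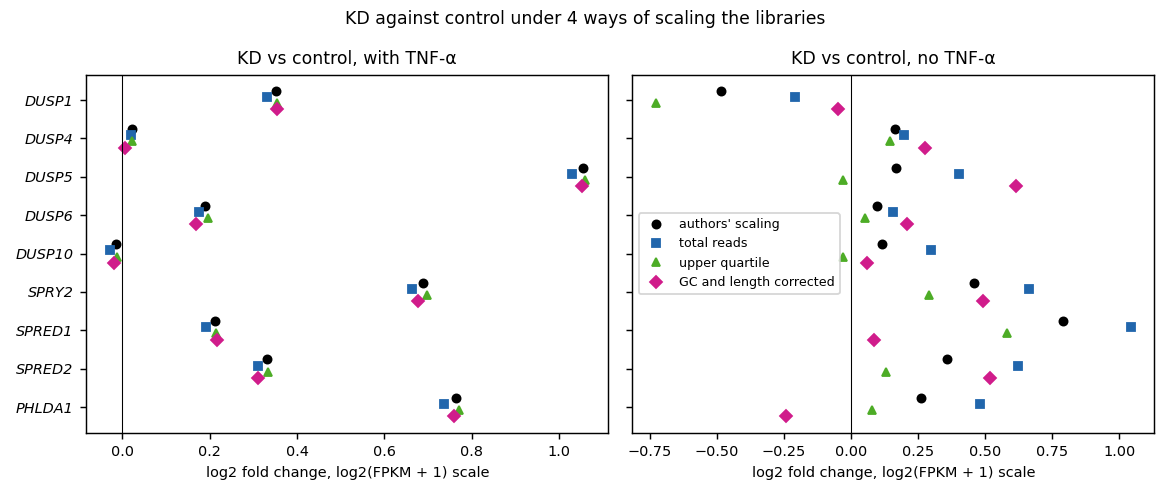
Log2 fold change of KD against control (x axis, log2(FPKM + 1) scale) of the 9 tested genes with the authors' scaling, total reads, upper-quartile scaling, and a GC and length correction. With TNF-α (left) the 4 values of a gene nearly coincided, and without it (right) DUSP1 ran from -0.73 to -0.05 and PHLDA1 from -0.24 to 0.48.

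TNF-α raised 3 of the 9 genes in control cells (DUSP5, SPRY2 and DUSP1) and lowered 0, against 3.1% and 1.14% of all genes. Over all genes 73.0% of the calls were higher, and 60.3% with total reads. With total reads 3 of the 9 members were called higher too, against 379 of the 16528 genes. In KD cells, DUSP4 again left out, 4 of 8 were higher (DUSP5, DUSP1, SPRY2 and PHLDA1) and 1 was lower (SPRED1), against 31.1% and 31.4% of all genes. In that comparison 49.8% of all calls were higher, 31.4% with total reads, with a median shift to -0.19, and 60.1% with upper-quartile scaling. These comparisons share libraries with those of KD and control.

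The interaction asks whether the KD effect differed with and without TNF-α. It was positive for DUSP5 (0.88, SE 0.117, adjusted p = 0.00181 from limma), DUSP1 (0.84, SE 0.111, adjusted p = 0.00183 from limma) and PHLDA1 (0.50, SE 0.131, adjusted p = 0.0169 from limma), and negative for SPRED1 (-0.58, SE 0.199, adjusted p = 0.0455 from limma). Of all genes 23.8% had a positive and 22.3% a negative call. The share of positive calls over all genes was 51.7% with the authors' scaling, 32.9% with total reads, which moved the median of all genes to -0.14, and 64.9% with upper-quartile scaling, which moved it to 0.12. DUSP5 and DUSP1 were called in each of 17 alternatives, between 0.44 and 1.09 for DUSP5 and between 0.40 and 1.08 for DUSP1, the lowest being after the GC and length correction. The call of PHLDA1 was lost in 6 of 17 alternatives, with total reads (0.25) and without the first stimulated control library or any KD library among them, with adjusted p up to 0.176, and was held at 1.00 after the GC and length correction. That of SPRED1 was lost in 9, every removal of a library but that of the second unstimulated control library among them, with adjusted p up to 0.145, and its sign turned after the GC and length correction. For SPRY2 the interaction was 0.23 (95% interval -0.16 to 0.62, adjusted p = 0.294 from limma).

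The other genes of the pathway were read from 6 lists of 42 genes, of which 41 were tested. In stimulated cells limma called 0 of the 41 between KD and control, against 19 of the 16528 genes. An unadjusted p under 0.05 was found for 12 of the 41, against 1348 of the 16528. A voom fit of the recovered reads called DUSP2 and EGR1, and the GC and length correction DUSP2 and FOSL1. Of the 5 other MAP kinase phosphatases 3 lay above 0, with a list median of 0.30, and of the 8 other transcripts that depend on ERK all 8 had both KD libraries above both control libraries, against 23.9% of all genes, with a median of 0.32. The 2 other Sprouty and Spred genes tested were above 0, with a median of 0.20. The 16 genes of the cascade from Ras to ERK had a median of 0.03, the 3 JNK and p38 kinases 0.04 and the 7 other inhibitors of receptors or Ras 0.08, where all genes had -0.00015. The lists were chosen with earlier results of these data known, so these counts are not independent evidence of a direction.

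**Figure D4:**
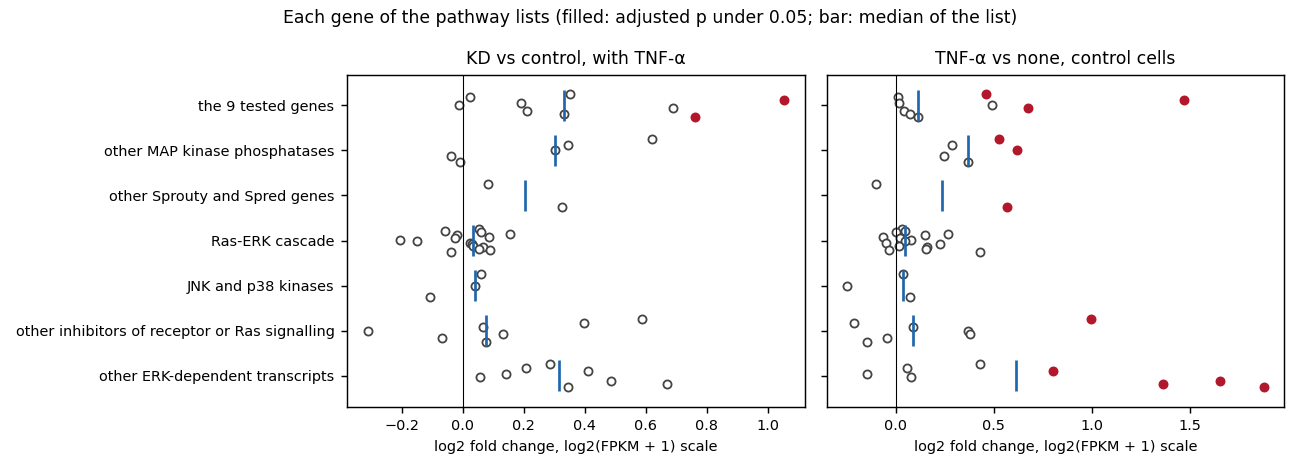
Log2 fold change (x axis, log2(FPKM + 1) scale) of each tested gene in the 9 members and the 6 other lists, filled where the adjusted p was under 0.05, with a bar at the list median, for KD against control with TNF-α (left) and TNF-α against none in control cells (right). On the left DUSP5 and PHLDA1 are the filled points, and on the right 3 members and 8 genes of the other lists.

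With TNF-α in control cells 8 of the 41 genes rose and 0 fell, against 3.1% and 1.14% of all genes. IER3, an immediate-early gene, rose by 1.88, FOSL1, a subunit of AP-1, by 1.65, and EGR1, a zinc finger transcription factor, by 1.36. ERRFI1, an inhibitor of the EGF receptor, rose by 1.00 and EPHA2, an ephrin receptor, by 0.80. Among the inhibitors nearest to the members, the phosphatase genes DUSP8 and DUSP2 rose by 0.62 and 0.53 and SPRED3 by 0.57, with adjusted p from 0.00646 to 0.0326 from limma. The call of SPRED3 was lost with total reads (0.50), and upper-quartile scaling left 1 call among the other phosphatase genes. No gene of the Ras to ERK cascade and no JNK or p38 kinase was called, and 1 cascade gene was after the GC and length correction. In KD cells TNF-α raised 20 and lowered 15 of the 41, against 31.1% and 31.4% of all genes. After the GC and length correction it raised 21 and lowered 10, against 4777 and 4512 of the 16528 genes. Of the 5 other phosphatases 4 rose, DUSP2 by 1.95, DUSP8 by 1.53, DUSP9 by 1.27 and DUSP7 by 1.15, and after that correction by 1.26, 0.88, 0.55 and 0.63.

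Without TNF-α 18 of the 41 were higher and 16 lower in KD cells, against 29.8% and 30.2% of all genes. After the GC and length correction 11 were higher and 10 lower, against 3847 and 4607 of the 16528 genes. DUSP2, DUSP7, DUSP8 and DUSP9 were lower, by -0.81, -0.52, -0.61 and -1.06, and stayed lower under both other scalings, but after the GC and length correction the list kept 1 call. Of the 8 ERK-dependent transcripts 4 were lower and 2 higher. With total reads 2 were lower and 2 higher, and with upper-quartile scaling 6 were lower and 0 higher. After the GC and length correction 0 were lower and 2 higher. ETV4, EPHA2 and IER3 were lower, by -0.68, -0.55 and -0.48, and were at -0.10, 0.01 and 0.08 after it. The 2 higher before the correction were EGR1 (0.45) and EPHA4 (0.18). After it EPHA4 was at -0.05, and the 2 higher were EGR1 and CCND1, which went from -0.06 to 0.30. Of the 16 genes of the cascade 8 were higher and 6 lower, and 5 and 6 after the correction. SOS2, SHOC2 and PTPN11 were higher, by 1.57, 1.40 and 1.37, and by 0.87, 0.71 and 1.11 after it. HRAS, MAP2K2 and MAPK3 were lower, by -1.27, -1.10 and -0.98, and by -0.59, -0.57 and -0.39 after it. Not all calls kept their sign. BRAF was called higher at 0.48 before the correction and lower at -0.24 after it. The same held in other lists for MAPK8 (0.66 and -0.24) and SPRY3 (0.17 and -0.51). All these rest on the unstimulated KD libraries described above. The interaction was positive for 17 and negative for 11 of the 41, against 23.8% and 22.3% of all genes. After the GC and length correction it was positive for 12 and negative for 4, against 3154 and 2459 of the 16528 genes.

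Over the 8 libraries, the members fell into different patterns. On log2(FPKM + 1) values, Pearson's r was 0.94 between DUSP5 and SPRY2, 0.91 between DUSP1 and DUSP5, 0.90 between SPRY2 and PHLDA1, and -0.59 between DUSP1 and SPRED1. The genes whose pattern was most like that of DUSP5 were NIPAL4, KRTAP2-3 and CDC42SE1 (r of 0.999, 0.997 and 0.996), and for DUSP1 they were STK40, RAC2 and CSRNP1 (0.998 each). For SPRY2 they were PDCD1LG2, MYOSLID and F3 (0.993, 0.991 and 0.985), for PHLDA1 KCNA3, AC073896.2 and IL1B (0.978, 0.974 and 0.970), for SPRED1 UBP1, FAM210A and PLA2R1 (0.998, 0.996 and 0.994) and for SPRED2 VCL, GOLPH3 and AHCYL1 (0.977, 0.974 and 0.973). These are the highest values among 16528 genes over the same 8 libraries, which share their depth, scaling and 4 groups.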

How the data were processed

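RNA of 8 libraries was measured. Per the labels, reads were handled with CASAVA 1.8, fastp, HISAT2 2.0.5, featureCounts 1.5.0-p3 and DESeq2 1.20.0 on GRCh38. The authors deposited FPKM values, and undoing the length and library scaling gave whole reads for 100% of them. The authors' library size was a median-of-ratios size over all 8 libraries. Identifiers, positions and exon lengths of 58735 genes match GENCODE 29. The edgeR test of the study was not run, and voom of the recovered reads served as the count-based alternative. The tests used limma 3.58.1 (R 4.3.3) on log2(FPKM + 1), with 4 residual degrees of freedom and a trended prior. The scripts were tested on simulated reads, where the share of false calls ran above the nominal rate in every comparison and past the limit first set for it, which was then raised.

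Members, gene lists, tests and the rule for named genes were chosen with earlier results of these data known. The rule took the members in full, WSB2, list genes called between stimulated KD and control cells (0) and at most 3 per list, the largest changes, in the other comparisons. EPHA2 under TNF-α in control cells, DUSP7, and EGR1, EPHA4, CCND1, BRAF, HRAS, MAP2K2 and MAPK3 without TNF-α were named beyond it, after their values were seen. Alternatives were a pseudocount of 0.1, other filters, total-read and upper-quartile scaling, voom of recovered reads, a GC and length correction (splines with 5 degrees of freedom), the replicate number as a block, only the groups compared and each library left out. Leaving out both unstimulated KD libraries, and a crossed block, were added after seeing the data. Groups of 2 cannot reach 0.05 in a permutation test. Sequences are from RefSeq (GRCh38.p14). Python 3.11.15 with pandas 2.3.3, numpy 2.4.6 and matplotlib 3.10.9 was used.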

Additional observations from a re-analysis of the deposited data

Results flagged for a closer look

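The KD effect of 4 genes differed between stimulated and unstimulated cells by the test of the interaction (KD effect with TNF-α minus KD effect without, log2 scale, limma, adjusted p under 0.05). The difference was 0.84 for DUSP1, whose KD libraries were below control without TNF-α and above it with TNF-α, 0.88 for DUSP5 and 0.50 for PHLDA1. For SPRED1 it was -0.58, and 0.13 after the GC and length correction. Calls of this kind were made for 46.1% of all genes, all with the unstimulated KD libraries in the comparison, and the part of the properties in which those libraries stood apart was not tested.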

How the results depend on the processing

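Between stimulated KD and control cells, the 2 members called became 1 with a pseudocount of 0.1, no filter, total reads, upper-quartile scaling, the replicate block, only the groups compared, and without both unstimulated KD libraries, and ranged from 0 to 2 with a library left out. The 19 genes called became 7 with no filter, 12 with upper-quartile scaling, 52 with voom, 61 with the GC and length correction, 39 with only the groups compared and 7 without both unstimulated KD libraries, and 0 to 98 with a library left out. Without TNF-α, and with DUSP4 again left out, the 4 members called became 6 with total reads and 5 with voom. They became 3 with the GC and length correction and with only the groups compared, and 2 with upper-quartile scaling. Their number also changed with a library left out. The 9928 genes called became 9971 with total reads, 9945 with voom and 10078 with upper-quartile scaling. They became 8454 with the GC and length correction and 8670 with only the groups compared. For TNF-α in control cells, the 3 members called became 1 with only the groups compared and 1 to 4 with a library left out, and the 701 genes became 368 with no filter, 238 with only the groups compared, 443 without both unstimulated KD libraries and 229 to 2130 with a library left out. The members called in the interaction were 2 to 4 with a library left out. In such fits the lone library is assumed to vary like the other groups. The cause was not tested.

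Deviations of same-numbered libraries correlated at 0.35 between the unstimulated groups and between -0.19 and 0.02 in the other pairs of groups (16528 genes), and no label ties a number to a shared culture or day, so the numbers were not taken to pair the libraries. The replicate block gave 10 genes and 1 member between stimulated KD and control cells, and 44 genes with the GC and length correction; PHLDA1 lost its calls with TNF-α (adjusted p = 0.107 from limma) and without (adjusted p = 0.0608 from limma), and SPRED2 gained one without TNF-α. Crossed numbers for TNF-α in control cells gave 756 genes and 3 members.

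Differences that changed sign were mostly of genes not called. With the GC and length correction, with and without the block, KD against control without TNF-α turned to -0.24 for PHLDA1, TNF-α in control cells to -0.070 for DUSP4 and -0.010 for SPRED1, TNF-α in KD cells to -0.030 for DUSP6, 0.12 for SPRED1, -0.17 for SPRED2 and -0.15 for WSB2, and the interaction to -0.041 for DUSP6 and 0.13 for SPRED1. With total reads, TNF-α in control cells turned to -0.020 for SPRED1, TNF-α in KD cells to -0.31 for SPRED2 and -0.25 for WSB2, which was called, and the interaction to -0.0022 for SPRY2 and -0.031 for WSB2. With upper-quartile scaling, KD against control without TNF-α turned to -0.028 for DUSP5 and -0.031 for DUSP10, and the interaction to 0.019 for DUSP10 and 0.20 for SPRED2. With a library left out, values ran across 0 for DUSP10 between stimulated KD and control cells (-0.097 to 0.069), for DUSP6 (-0.014 to 0.21) and DUSP10 (-0.10 to 0.34) without TNF-α, for DUSP6 (-0.052 to 0.092), SPRED1 (-0.16 to 0.25) and SPRED2 (-0.13 to 0.28) with TNF-α in control cells, for DUSP6 (-0.0035 to 0.23) and SPRED2 (-0.045 to 0.14) with TNF-α in KD cells, and for DUSP6 (-0.023 to 0.21), DUSP10 (-0.35 to 0.088) and SPRED2 (-0.23 to 0.18) in the interaction. DUSP4, DUSP6 and SPRY4 were limited by depth.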
